A study of Mus musculus with 6 samples.

Results

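The leukocyte integrins are the 10 subunit genes Itga4, Itga5, Itga6, Itgal, Itgam, Itgax, Itgb1, Itgb2, Itgb3 and Itgb7, followed here by name among the 19938 genes measured on Affymetrix arrays. Each gene was read from 1 probe set that carries its symbol alone, the brightest over the 6 arrays where several exist, and each of the 10 had exactly 1. The RNA came from murine precursor B cells carrying BCR-ABL1, a fusion kinase that drives Ph+ acute lymphoblastic leukaemia (ALL). The first group was the Dusp6 knockout (Dusp6 KO, 3 arrays) and the second the Dusp6 wild type (Dusp6 WT, 3 arrays). Both shared the C57Bl/6-SV129j strain background, the pre-B cell type and the BCR-ABL1 transformation. Dusp6 encodes a cytoplasmic phosphatase that inactivates ERK, and the comparison asks which integrin transcripts change with its loss. The labels leave unsaid which part of Dusp6 was deleted, whether a genotype was 1 clone or 1 culture, or whether the arrays came from separate animals, so p-values reflect the spread over these arrays alone, which may be technical.

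Dusp6 itself had log2 signals of 9.04, 9.06 and 9.15 in the KO arrays, against 12.36, 12.46 and 12.49 in the WT arrays. Of 17 measured B lineage markers, 12 lay above the upper quartile of all genes on every array, among them Cd79a, Ebf1, Igll1 and Vpreb3, and 0 lay below the median on every array. Over all probe sets, the correlation was 0.996 to 0.998 within a genotype and 0.987 to 0.989 between them.

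Integrins are adhesion receptors made of 1 alpha and 1 beta chain, and a chain needs a partner to reach the cell surface. Signals from inside the cell, through the GTPase Rap1, talin and kindlin, switch them to a state that binds ligand. Precursor B cells use integrins with the alpha 4 chain to bind VCAM-1 and fibronectin of the bone marrow stroma, while integrins with the beta 2 chain bind ICAMs and belong to leukocytes only.

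Among the leukocyte integrins, transcripts of Itgal, Itgb2, Itga6 and Itga4 were higher in the knockout cells. The increase was 2.15-fold for Itgal, 1.71-fold for Itgb2, 1.55-fold for Itga6 and 1.13-fold for Itga4. The other 6 members (Itga5, Itgam, Itgax, Itgb1, Itgb3 and Itgb7) did not pass the test. The test was limma's moderated test of genotype over all genes, with a gene called at a Benjamini-Hochberg adjusted p under 0.05. In all, 4 of 10 members were called higher and 0 were called lower (also 4 and 0 at an unadjusted p under 0.05), where 19.8% of the genes tested were called, 9.66% higher and 10.2% lower. The members' median log2 difference, knockout minus wild type, was 0.067, against 0.0018 for all genes. Leaving out 1 array gave 3 or 4 members called higher and 0 or 1 called lower. The members were chosen with earlier results of these data known, so their count is a description.

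Promoter sequences of 6 of the 10 members were found in RefSeq's table for GRCm38.p6, running from 250 bases before the transcript start to 50 after it. Itga6, Itgal, Itgb2 and Itgb3 had no entry. Shown here are Itga4, the 1 member with an entry whose transcript rose, its beta partners Itgb1 and Itgb7, which were not called, and the neighbouring genes Itgam and Itgax, whose proteins pair with that of Itgb2. Sequences run 5′ to 3′ on the strand of the gene. Capitals mark matches on either strand to 3 short motifs, GAGGAA (an ETS core of the type that PU.1 binds), CCGGAA (another ETS core) and TGTGGT (a RUNX core).
Itga4, chr2:79255176-79255475, plus strand: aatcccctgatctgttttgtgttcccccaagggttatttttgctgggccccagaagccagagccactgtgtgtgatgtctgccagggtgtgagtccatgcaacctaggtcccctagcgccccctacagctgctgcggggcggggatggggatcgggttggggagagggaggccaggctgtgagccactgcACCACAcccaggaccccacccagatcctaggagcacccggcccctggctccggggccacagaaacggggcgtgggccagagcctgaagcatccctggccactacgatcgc
Itgb1, chr8:128685404-128685703, plus strand: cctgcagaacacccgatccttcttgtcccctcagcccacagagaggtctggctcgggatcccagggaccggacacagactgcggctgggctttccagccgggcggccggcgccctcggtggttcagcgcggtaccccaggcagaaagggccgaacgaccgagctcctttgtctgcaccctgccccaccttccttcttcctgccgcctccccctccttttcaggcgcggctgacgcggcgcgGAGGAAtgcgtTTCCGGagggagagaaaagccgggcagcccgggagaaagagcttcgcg
Itgb7, chr15:102231886-102232185, minus strand: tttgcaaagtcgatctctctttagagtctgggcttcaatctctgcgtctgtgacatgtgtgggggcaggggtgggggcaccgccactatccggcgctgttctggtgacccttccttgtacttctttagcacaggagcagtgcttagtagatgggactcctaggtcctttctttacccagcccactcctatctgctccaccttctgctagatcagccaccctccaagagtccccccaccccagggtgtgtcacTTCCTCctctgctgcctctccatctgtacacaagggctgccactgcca
Itgam, chr7:128062390-128062689, plus strand: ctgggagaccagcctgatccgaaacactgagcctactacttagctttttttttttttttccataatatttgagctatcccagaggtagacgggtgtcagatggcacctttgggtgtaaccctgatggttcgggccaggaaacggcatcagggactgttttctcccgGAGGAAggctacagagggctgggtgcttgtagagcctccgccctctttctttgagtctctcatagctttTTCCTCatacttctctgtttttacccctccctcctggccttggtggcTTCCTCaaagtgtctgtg
Itgax, chr7:128129300-128129599, plus strand: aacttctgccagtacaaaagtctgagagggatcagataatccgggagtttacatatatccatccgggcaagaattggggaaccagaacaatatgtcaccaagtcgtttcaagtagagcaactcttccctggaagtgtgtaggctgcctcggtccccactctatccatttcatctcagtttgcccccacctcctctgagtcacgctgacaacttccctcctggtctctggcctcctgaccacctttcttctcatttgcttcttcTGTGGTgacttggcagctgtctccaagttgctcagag
Itgam held 3 matches to GAGGAA, while Itgb1, Itgb7 and the Itga5 promoter, which is not printed, held 1 each. Itga4 and Itgax each held 1 match to TGTGGT, and Itgb1 held 1 match to CCGGAA. No matches overlapped one another in these 6 promoters. Of 32851 promoters of 300 bases in the table, 28.3% held GAGGAA, 14.9% CCGGAA and 16.8% TGTGGT on either strand. A match is a run of letters in this window and was not tested as a binding site.

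The pair that makes LFA-1, the ICAM receptor of lymphocytes, changed most among the members. Itgal encodes its alpha chain, and its log2 signals were 9.85, 9.96 and 9.82 in the KO arrays, against 8.73, 8.78 and 8.81 in the WT arrays. The lowest KO array stood about 1 log2 unit above the highest WT array. The log2 difference was 1.10 ± 0.051 (limma SE, n = 3 each; adjusted p = 4.16e-07), with a 95% interval of the fold from 1.98 to 2.32. By size it ranked at position 129 of the 1926 genes called higher. Itgb2 encodes the beta chain that Itgal, Itgam and Itgax share. Its log2 signals were 11.15, 10.94 and 11.002 in the KO arrays, against 10.25, 10.31 and 10.20 in the WT arrays. The groups did not overlap, and the difference was 0.78 ± 0.059 (limma SE, n = 3 each; adjusted p = 1.38e-05), or 1.56-fold to 1.88-fold at 95% confidence. These are bulk samples, in which a change in the number of cells of a type and a change in RNA per cell cannot be told apart.

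The other alpha chains that pair with Itgb2 gave no call. Itgam encodes the alpha chain of Mac-1, a complement receptor of myeloid cells. It had log2 signals of 7.41, 7.42 and 7.32 in the KO arrays, against 7.62, 7.55 and 7.31 in the WT arrays. Its groups overlapped, since WT replicate 3 was the lowest of all 6 arrays while the other WT arrays were the highest, and the 95% interval of the log2 difference ran from −0.28 to 0.059 (limma adjusted p = 0.38). Without WT replicate 3 the difference was −0.20 and was called lower (limma adjusted p = 0.0363). Itgax encodes the alpha chain of an integrin known from dendritic cells and macrophages. It averaged 7.60 ± 0.080 in the KO arrays and 7.52 ± 0.053 in the WT arrays (log2 signal, SD, n = 3 each), with an interval of the log2 difference from −0.036 to 0.20 and a limma adjusted p of 0.345. Both probe sets lay below the median of all genes on every array, and Itgam lay above the lower quartile on only 2 arrays. Itgam and Itgax are adjacent protein-coding genes in the GRCm38.p6 annotation, with Itgal on the same chromosome and 35 protein-coding genes between it and Itgam. The next gene after Itgax, Itgad, encodes a further partner of the beta 2 chain and had a log2 difference of −0.061 (limma adjusted p = 0.477).

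**Figure D1:**
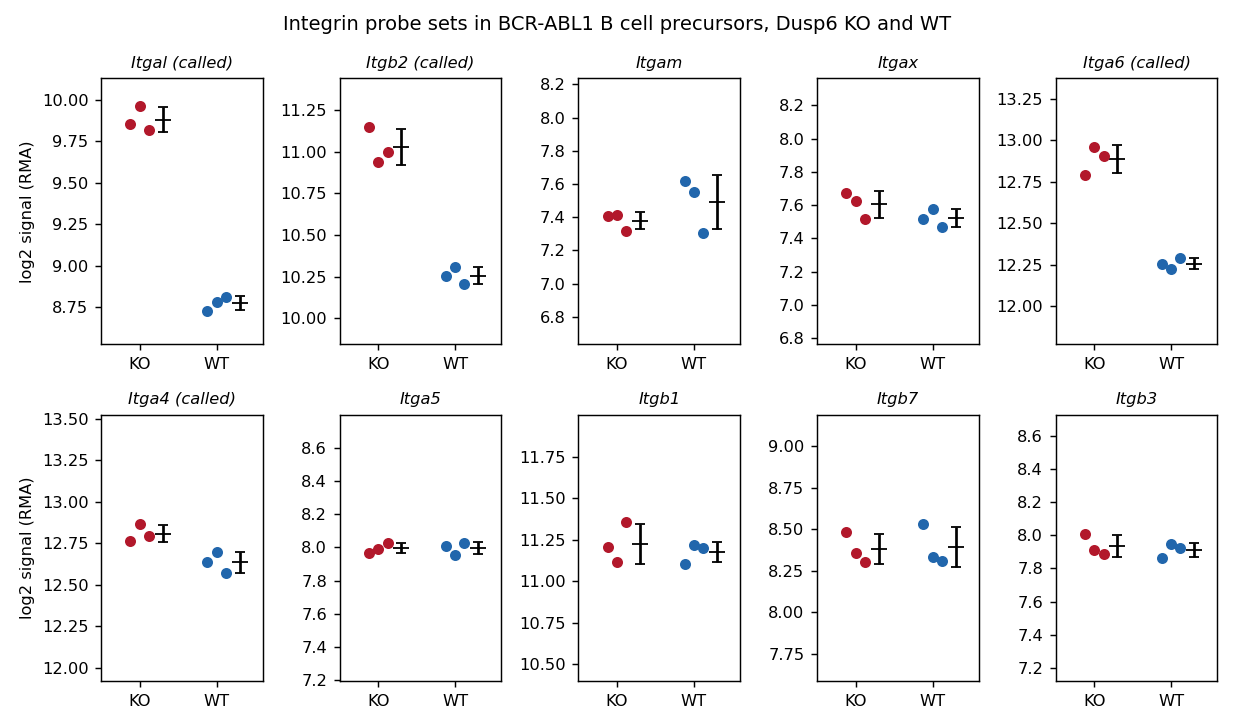
Log2 RMA signal of the 10 integrin probe sets, with 1 point per array, Dusp6 KO left of Dusp6 WT, and the mean ± SD (n = 3) beside the points. Each panel spans the same height in log2 units but has its own range, since levels of different probe sets are not comparable. KO points stand clear of WT points for Itgal, Itgb2 and Itga6 and by a narrow gap for Itga4, and the points of the other 6 genes overlap.

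Among the chains that pair with beta 1, the alpha chain genes Itga6 and Itga4 rose while Itgb1 did not pass. Itga6 encodes the alpha chain of laminin receptors, and its log2 signals were 12.79, 12.96 and 12.91 in the KO arrays, against 12.25, 12.23 and 12.29 in the WT arrays. The KO arrays were all higher, and the log2 difference was 0.63 ± 0.052 (limma SE, n = 3 each; adjusted p = 2.39e-05), or 1.43-fold to 1.68-fold at 95% confidence. Itga4 encodes the alpha chain of VLA-4, which binds VCAM-1 and fibronectin with beta 1, and pairs with beta 7 to bind MAdCAM-1. It had log2 signals of 12.77, 12.86 and 12.79 in the KO arrays, against 12.63, 12.70 and 12.57 in the WT arrays. The gap between the lowest KO array and the highest WT array was narrow, and the difference was 0.17 ± 0.049 (limma SE, n = 3 each; adjusted p = 0.0371). The Itga4 call was lost without WT replicate 1 (limma adjusted p = 0.0986), WT replicate 3 (0.133), KO replicate 2 (0.114) or KO replicate 3 (0.0818), with a difference of 0.14 to 0.20 over all 6 arrays left out in turn.

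Itgb1 encodes the beta chain with the widest choice of alpha partners. It had log2 signals of 11.21, 11.11 and 11.35 in the KO arrays, against 11.10, 11.22 and 11.20 in the WT arrays. KO replicate 3 was the highest array and the groups overlapped, and the 95% interval of the log2 difference was −0.095 to 0.20 (limma adjusted p = 0.671). Itga5, the alpha chain of the classical fibronectin receptor, averaged 7.996 ± 0.031 in the KO arrays and 7.997 ± 0.036 in the WT arrays (log2 signal, SD, n = 3 each). Its interval of −0.097 to 0.095 (0.935-fold to 1.07-fold) was the narrowest of the 10 members. Itgb7, the partner of Itga4 and of Itgae in lymphocytes that home to mucosa, averaged 8.38 ± 0.093 in the KO arrays and 8.39 ± 0.12 in the WT arrays, with an interval of the log2 difference from −0.17 to 0.15. Itgb3, the beta chain of the platelet fibrinogen receptor and of the vitronectin receptor, averaged 7.93 ± 0.065 in the KO arrays and 7.91 ± 0.042 in the WT arrays (interval −0.085 to 0.13). The probe sets of Itga5, Itgb3 and Itgb7 lay below the median of all genes on every array.

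The KO and WT arrays did not overlap in 4 of the 10 members, the same 4 that were called, with KO above WT in each. Over all genes the groups did not overlap in 35.7%, with KO above WT in 17.3% and below it in 18.4%.

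The balance of chains within known heterodimers was compared as the log2 ratio of the alpha to the beta signal on each array. The ratio itself has no meaning across probe sets, and only its difference between genotypes is given. For Itgal over Itgb2 the ratio was higher in KO by 0.33, a change of 1.25-fold. For Itgam over Itgb2 it fell by 0.89, and for Itgax over Itgb2 it fell by 0.69. Both alpha probe sets are dim, and Itgb2 itself rose by 0.78, so these changes largely restate that rise and do not show that the alpha chain transcripts stayed level. For Itga6 over Itgb1 the ratio was higher by 0.58, which largely restates the Itga6 rise of 0.63, since Itgb1 was not called. The groups did not overlap in these 4 pairs. They overlapped for Itga4 over Itgb1 (0.12), Itga4 over Itgb7 (0.18) and Itga5 over Itgb1 (−0.051). With 1 array left out at a time these ran from 0.038 (without KO replicate 2) to 0.19 (without KO replicate 3), from 0.11 (without WT replicate 1) to 0.26 (without KO replicate 1), and from −0.10 (without KO replicate 2) to −0.0027 (without KO replicate 3), in that order of pairs. Across the 7 pairs, an exact two-sided permutation test over the arrays gave p = 0.1 for the 4 pairs without overlap, the smallest value that 3 arrays against 3 allow, and 0.2 to 0.5 for the others. Adjusted over the 7 pairs these were 0.175 and 0.28 to 0.5, and this test cannot pass the threshold with 3 arrays a group.

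**Figure D2:**
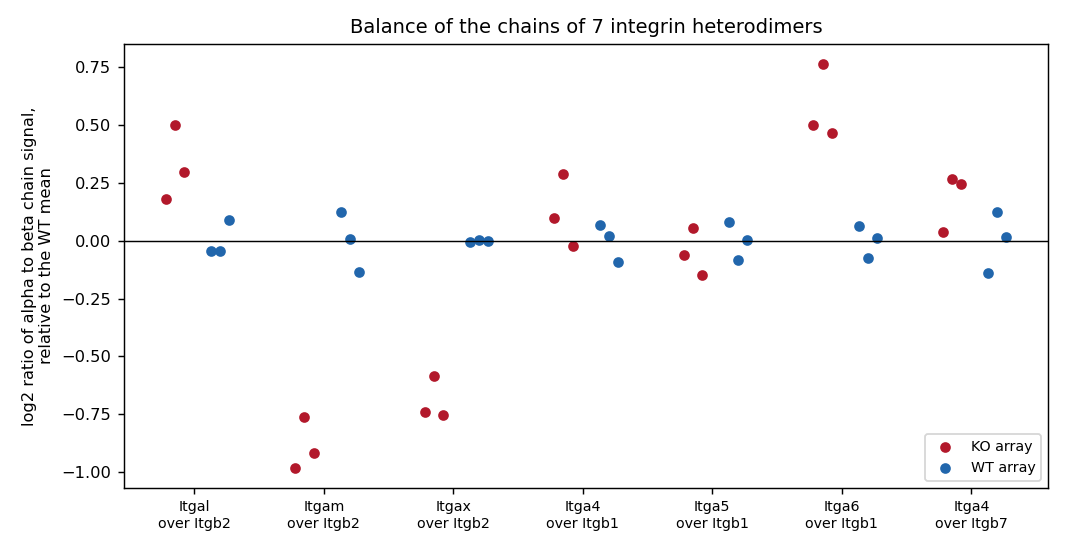
Log2 ratio of alpha chain to beta chain signal on each array for 7 known heterodimers, less the mean of the WT arrays, with KO points left of WT points. KO points lie above all WT points for Itgal over Itgb2 and Itga6 over Itgb1, and below all WT points for Itgam and Itgax over Itgb2.

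The profile over the 6 arrays nearest to that of Itgal, by Euclidean distance between mean-centred log2 values, belonged to Parp8, a member of the poly(ADP-ribose) polymerase family (distance 0.093). Cdh1 (0.12) and Isg20, an interferon-induced exonuclease gene (0.12), came next. These are the 3 nearest of all genes measured, and since the genotype sets most of each profile, the likeness is a description.

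Of the 17 other integrin subunit genes, 2 (11.8%) rose and 0 fell in limma's test (4 and 0 at an unadjusted p under 0.05). The shares over all genes were 9.66% higher and 10.2% lower. The median log2 difference of the 17 was 0.055. Itga9, an alpha chain that pairs with beta 1, rose by 0.29 ± 0.056 on the log2 scale (limma SE; adjusted p = 0.00577). It had log2 signals of 8.23, 8.16 and 8.09 in the KO arrays, against 7.81, 7.96 and 7.85 in the WT arrays, all below the median of all genes. Itgav, the alpha chain of vitronectin receptors, rose by 0.16 ± 0.044 (limma SE; adjusted p = 0.0275). That call was lost without WT replicate 1 (limma adjusted p = 0.0846), WT replicate 3 (0.108), KO replicate 2 (0.0639) or KO replicate 3 (0.0926), and with the replicate number as a block (0.0608). The beta chains Itgb5, Itgb6 and Itgb8, which pair with the Itgav product, had log2 differences of 0.12, 0.043 and 0.094, none of them called. Of the 17 subunits, 14 lay below the median of all genes on every array, Itgb5, Itgb6 and Itgb8 among them. Itgb6 and Itgb8 also lay below the lower quartile on every array.

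**Figure D3:**
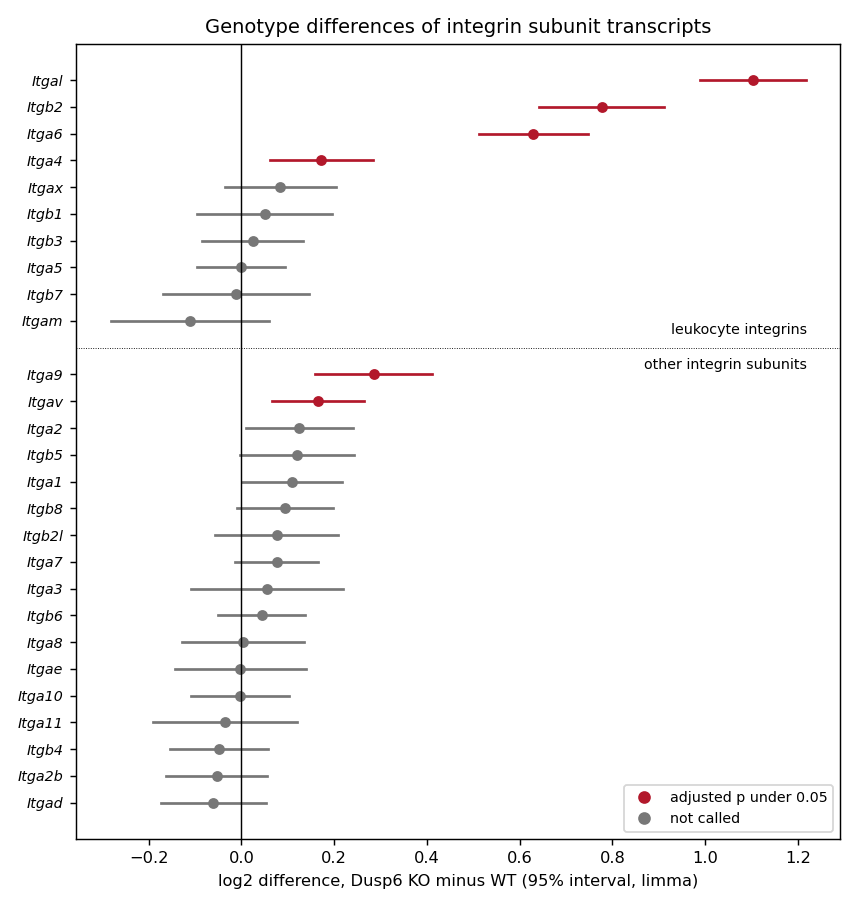
Log2 difference of each integrin subunit gene, Dusp6 KO minus Dusp6 WT, with its 95% interval from limma. The 10 leukocyte integrins stand above the dotted line and the 17 other subunits below it, each ordered by difference. Itgal, Itgb2 and Itga6 lie between 0.63 and 1.10, and every other subunit lies between −0.11 and 0.29.

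Genes that control integrin activation, some by opposing it, or tie integrins to actin moved both ways and by little. Of 37 measured, 7 (18.9%) rose and 3 (8.11%) fell, with differences from −0.34 to 0.30 and a median of 0.053. Over all genes 9.66% were called higher and 10.2% lower. The 7 included Sipa1, which turns Rap1 off (0.15, limma adjusted p = 0.0292). Parvg, the parvin of blood cells that joins integrin-linked kinase to actin, rose by 0.30 (log2 signals 13.34, 13.26 and 13.24 in the KO arrays, against 13.01, 12.97 and 12.96 in the WT arrays; limma adjusted p = 0.00104). Parvb, which lay below the median of all genes on every array, rose by 0.22 (limma adjusted p = 0.00654). Fermt3, the kindlin of blood cells, which binds integrin beta tails, rose by 0.20 (limma adjusted p = 0.00917). Tln2, the less widely expressed of the talins, fell by 0.34 (limma adjusted p = 5e-04), with log2 signals of 8.76, 8.75 and 8.83 in the KO arrays, against 9.07, 9.16 and 9.14 in the WT arrays. Tln1, the main talin of blood cells, had a log2 difference of 0.037 (limma adjusted p = 0.672), and Rap1b, a Rap1 isoform, one of 0.023 (limma adjusted p = 0.777). Vcl (vinculin), which ties adhesion sites to actin, fell by 0.19 (limma adjusted p = 0.00823), and Rsu1, of the integrin-linked kinase complex, fell by 0.19 (0.00781). Without WT replicate 3 the count that rose was 3. The count that fell was 5 with arrays centred on their medians or quantile normalization repeated, which both added Skap1 and Stk4, and also 5 with trend and robust options, which added Ilk and Stk4.

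Among 25 measured integrin ligands, 2 (8%) rose and 0 fell in limma's test (5 and 2 at an unadjusted p under 0.05). For comparison, 9.66% of all genes were called higher and 10.2% lower. Cdh1, which encodes E-cadherin, the ligand of the Itgae and Itgb7 pair, had log2 signals of 9.69, 9.67 and 9.61 in the KO arrays, against 8.45, 8.51 and 8.61 in the WT arrays. It rose 2.19-fold (log2 difference 1.13 ± 0.052, limma SE; adjusted p = 3.99e-07), while Itgae had a log2 difference of −0.0026 (limma adjusted p = 0.986). The Itgae probe set was dim, below the median of all genes on every array and above the lower quartile on only 3. Fn1, which encodes fibronectin, rose by 0.22 on the log2 scale (limma adjusted p = 0.023). Its probe set lay below the median of all genes on every array. The Fn1 call was lost without WT replicate 1 (0.0706), KO replicate 1 (0.0605) or KO replicate 2 (0.0707). Without WT replicate 2 the laminin genes Lamb2 (0.23) and Lamc1 (0.23) were also called higher, and without KO replicate 1 Madcam1 was called lower (−0.26). Icam1 and Icam2, ligands of LFA-1, had log2 differences of 0.058 (limma adjusted p = 0.461) and −0.14 (0.137), and Vcam1, the ligand of VLA-4, one of 0.11 (0.199). Vcam1 lay below the lower quartile of all genes on every array. Of the 25 ligands, 20 lay below the median on every array, so most lacked a bright signal in which to see a change.

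Of 13 membrane proteins that associate with integrins, 2 (15.4%) rose and 0 fell in limma's test (4 and 2 at an unadjusted p under 0.05). Among all genes 9.66% were called higher and 10.2% lower. Cd82, a tetraspanin that associates with integrins, had log2 signals of 11.60, 11.44 and 11.58 in the KO arrays, against 10.42, 10.36 and 10.35 in the WT arrays. It rose 2.24-fold (log2 difference 1.16 ± 0.053, limma SE; adjusted p = 3.73e-07). The tetraspanin genes Cd81, Cd37 and Cd53 differed by 0.028, 0.091 and 0.064 on the log2 scale and were not called. Cd44, the hyaluronan receptor, rose by 0.21 (limma adjusted p = 0.0172), a call lost without WT replicate 2 (0.065), KO replicate 2 (0.0628) or KO replicate 3 (0.0607). With trend and robust options Cd37 was called higher (limma adjusted p = 0.0456) and Slc3a2 lower (−0.10), and Cd63 was called lower without KO replicate 2 (−0.84). The Cd63 probe set lay below the lower quartile of all genes on every array, and its SD over the 3 KO arrays was 0.51.

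**Figure D4:**
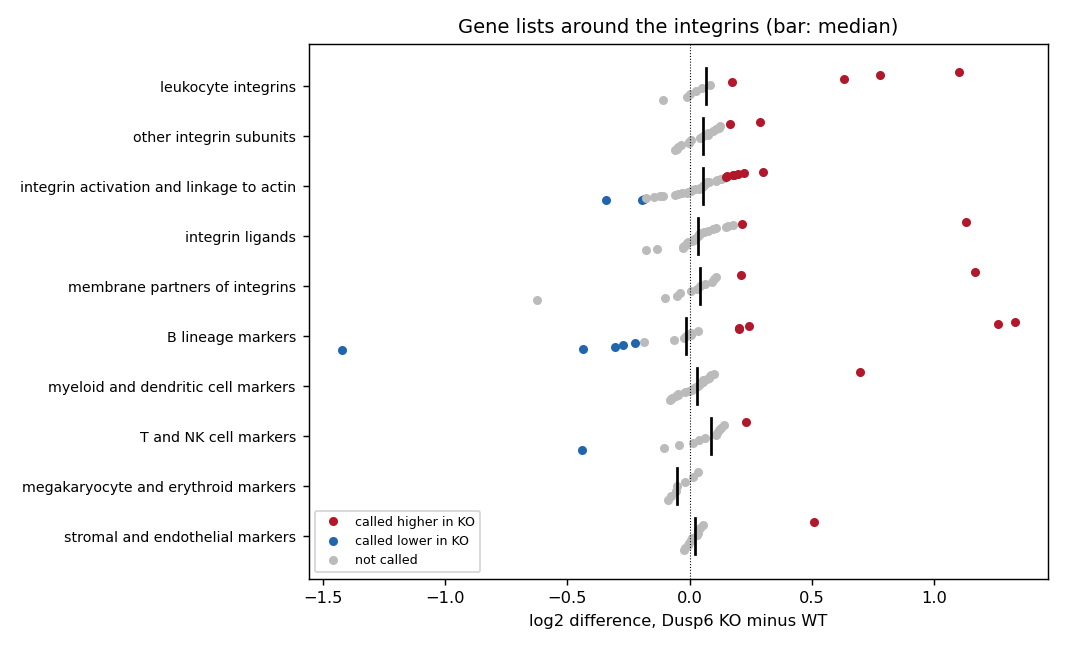
Log2 difference of every measured gene in the integrin list, 4 lists around it and 5 lists of cell type markers, Dusp6 KO minus Dusp6 WT, with the median of each list as a black bar. Called genes are coloured. The list medians lie between −0.054 and 0.086, and single genes such as Itgal (1.10), Cdh1 (1.13) and Cd82 (1.16) lie far from them.

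Markers of other cell types, only some of which carry beta 2 integrins, were read beside the integrin results. Their counts stand beside 9.66% of all genes called higher and 10.2% called lower. Of 22 myeloid and dendritic cell markers, 1 rose, Lyz2 (lysozyme), by 0.70 on the log2 scale (limma adjusted p = 1.85e-05). The other 21 were not called (0 lower, also 0 at an unadjusted p under 0.05) and lay below the median of all genes on every array, among them Mpo, Elane, Csf1r and Cd14. The summed signal of the list on the linear scale was 4871 to 4932 in the KO arrays and 4505 to 4578 in the WT arrays. Without Lyz2 the sum over the other 21 was 4012 to 4097 in the KO arrays and 3978 to 4044 in the WT arrays, which overlap. Of 12 T and NK cell markers, Cd8b1 rose by 0.23 (limma adjusted p = 0.00604) and Lat fell by 0.44 (limma adjusted p = 8.81e-05). Lat was the only marker of this list above the median of all genes on every array, so its fall need not reflect T or NK cells. Cd8b1 lay below the median of all genes on every array, and above the lower quartile on only 3. Without WT replicate 3, Ncr1 was also called higher (0.22). The summed signal of the list was 2841 to 2923 in the KO arrays and 3061 to 3105 in the WT arrays. Without Lat and Cd8b1 the sum over the other 10 was 1816 to 1868 in the KO arrays and 1722 to 1841 in the WT arrays, which overlap. Cd3d and Cd3g lay below the lower quartile on every array while Cd3e lay above the median on 1. The log2 differences for Cd3e, Cd3d and Cd3g were 0.11, −0.11 and 0.12. Of 7 megakaryocyte and erythroid markers, which bear on Itgb3, 0 were called in limma's test and 0 had an unadjusted p under 0.05. Epor differed by −0.087 (limma adjusted p = 0.43) and Gp9 by −0.078 (0.476). Of 12 stromal and endothelial markers, Pecam1, which leukocytes also carry, rose by 0.51 (limma adjusted p = 2.67e-05) and 0 fell (0 at an unadjusted p under 0.05). The summed signal of that list was 5501 to 5678 in the KO arrays and 4789 to 4892 in the WT arrays. Without Pecam1 the sum over the other 11 was 3103 to 3251 in the KO arrays and 3128 to 3139 in the WT arrays, which overlap. The sums without called genes dropped genes chosen by calls in the same data. Overlap of the rest was therefore favoured beforehand and does not measure cell content. The part of other cells in the integrin results was not tested.

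B lineage markers moved beside the integrins in both directions, with 5 of 17 higher and 5 lower (29.4% each). The shares over all genes were 9.66% higher and 10.2% lower. Cd22, an inhibitory receptor, rose by 1.33 (limma adjusted p = 3.6e-06) and Cd72, another, by 1.26 (3.17e-06), while Dntt, a template-independent polymerase of V(D)J joining, fell by 1.42 (3.76e-08) and Rag2, a subunit of the recombinase, fell by 0.43 (0.00083). The others called were Bst1 (0.24), Rag1 (0.20) and Ptprc (0.20), which were higher, and Il7r (−0.31), Vpreb1 (−0.27) and Blnk (−0.23), which were lower. The summed signal of the list was 152500 to 155500 in the KO arrays and 158400 to 159300 in the WT arrays. Over the 7 markers not called, the sum was 107700 to 109700 in the KO arrays and 110100 to 111400 in the WT arrays, which do not overlap. Without WT replicate 1 the count of B lineage markers called higher was 3. Pax5 was also called lower with arrays centred on their medians (limma adjusted p = 0.0439) or with trend and robust options (0.0125).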

How the data were processed

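Total RNA of 3 Dusp6 KO and 3 Dusp6 WT samples, grouped by their titles, was hybridised to Affymetrix arrays. The deposited table holds log2 signals made by the authors. The tools named in the submitters' processing notes are RMA, with no version, and Partek 6.5; probe filter and summarisation level: not given in the sources used here. Values between 3.24 and 14.8 show the log2 scale. Among 35556 probe sets, 21789 had a single symbol in GEO's platform annotation, 1621 had several (3 of these name Itgam and were left out) and 12146 were unnamed here. Genes with more than 1 probe set (999) took the brightest, which left 19938 genes.

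Genotype was tested over all 6 arrays by lmFit and eBayes of limma 3.58.1 (R 4.3.3), with Benjamini-Hochberg adjustment over all genes and a threshold of 0.05. Differences are knockout minus wild type. The number of arrays limits the precision: the median standard error over genes was 0.051. The test was checked on simulated data. The members and gene lists were chosen with earlier results of these data known. Named genes are the 10 members, Dusp6, from each list the called genes with the largest absolute differences, at most 4 (failing any, the 2 of smallest p), and the 3 genes nearest in profile to the member that rose most. Other genes, such as Itgad, Itgae, Tln1, Vcl, Icam1, Vcam1 and further list members, were chosen after their values were seen. Alternatives were another normalization, centring, filters on dim genes, the mean of probe sets, trend and robust options, the replicate number as a block, and leaving out each array.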

Additional observations from a re-analysis of the deposited data

How the results depend on the processing

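Itgal (1.06 to 1.13), Itgb2 (0.72 to 0.82) and Itga6 (0.59 to 0.68) stayed called higher under all 13 alternatives run, and the Itga4 call held under 9 of 13 (0.14 to 0.20, adjusted p from 0.00476 to 0.133). With 1 array left out at a time, the members called lower numbered 0 to 1, the 1 being Itgam. Members near 0 changed sign when an array was left out: Itga5 ranged from −0.021 to 0.014, Itgb1 from −0.015 to 0.11, Itgb3 from −0.013 to 0.048 and Itgb7 from −0.064 to 0.058, none called. The filters on dim genes left some dim members out of the test. The same-numbered arrays of the genotypes did not deviate together (correlations of 0.010, −0.117 and 0.053), so the replicate number was not taken as pairing; with it as a block, 1681 genes were called higher and 1764 lower, and the 4 integrin calls remained (Itga4 adjusted p = 0.0444), while Itgav was lost (0.0608). Counts over all genes ran from 1491 to 2189 higher (1926 reported) and from 1512 to 2411 lower (2028 reported). Over the alternatives run for lists, the other integrin subunits called higher numbered 1 to 2. The activation and linkage genes numbered 3 to 8 higher and 3 to 5 lower, and the ligands 1 to 4 higher and 0 to 1 lower. The membrane partners numbered 1 to 3 higher and 0 to 1 lower, and the B lineage markers 3 to 5 higher and 4 to 6 lower. The T and NK cell markers called higher numbered 1 to 2.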
